A study of Homo sapiens with 6 samples.

Results

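The 10 Krüppel-like factor genes KLF2, KLF3, KLF4, KLF5, KLF6, KLF7, KLF9, KLF10, KLF11 and KLF13 were taken by symbol from a table of read counts for 26485 gene symbols, and all 10 had a row and enough counts to be tested. The cells were PC-9, a human lung adenocarcinoma line with mutant EGFR. One population stably carried a short hairpin RNA against IFITM3, an interferon-induced membrane protein (shIFITM3), and the other a control hairpin (shControl), which the table's column names call ShEV. No drug was named for either population, and each was represented by 3 samples that the labels call biological replicates. The labels name no separate clones or hairpins, so p-values measure the spread between samples of 1 stable population per group.

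Krüppel-like factors are DNA-binding proteins whose C-terminal zinc fingers recognise GC-rich and CACCC-type sequences in promoters and enhancers. The N-terminal parts differ and decide the partners. KLF2, KLF4, KLF5, KLF6 and KLF7 belong to the group usually described as activators, KLF3 recruits the corepressor CtBP, and KLF9, KLF10, KLF11 and KLF13 recruit the corepressor SIN3A. In epithelia the family is known for setting the balance between proliferation and differentiation, with KLF5 active in dividing progenitor cells and KLF4 in cells that leave the cycle. Several members are early response genes whose transcripts change quickly with growth factors, stress or hormones.

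Depth ranged from 21342028 to 77228760 total counts per sample, with the deepest library, shControl replicate 2, holding 77228760 and the next deepest 27493145. IFITM3 itself fell from 60.1 ± 2.91 to 10.99 ± 1.65 CPM (counts scaled to library size, mean ± SD, n = 3 each), so the labels of all 6 samples go with the level of the targeted gene. All 7 epithelial markers examined were expressed, with a summed level of 9625 to 9760 CPM in shControl and 8291 to 8506 CPM in shIFITM3. Of 11 markers of blood, endothelial and stromal cells, 4 were high enough to be tested. Their summed level was 75.6 to 83.3 CPM in shControl and 85.9 to 94.95 CPM in shIFITM3, most of it CD68, a lysosomal protein gene also expressed outside macrophages. All 4 passed the test, in both directions. CD68 rose from 65.8 ± 4.21 to 75.9 ± 2.94 CPM (edgeR adjusted p = 0.002), and the collagen gene COL1A1 from 9.56 ± 0.841 to 11.5 ± 1.74 CPM (edgeR adjusted p = 0.0381), with overlapping groups for COL1A1. Of the endothelial genes, CDH5 rose from 0.666 ± 0.288 to 2.04 ± 0.309 CPM (edgeR adjusted p = 0.000127) and PECAM1 fell from 2.70 ± 0.36 to 0.842 ± 0.0905 CPM (edgeR adjusted p = 1.21e-05). DCN had no count in any library, and COL1A2 and CD3E were near 0. Whether these shifts have a part in the results below was not tested.

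The transcripts of 6 Krüppel-like factors rose in the knockdown cells, those of 2 fell slightly, and 2 did not pass the test. KLF6 rose most, to 2.71 times its control level, followed by KLF11 (1.65 times), KLF2 (1.62 times), KLF9 (1.59 times), KLF13 (1.45 times) and KLF3 (1.23 times). KLF4 and KLF10 fell to 0.888 and 0.885 times their control levels. A gene was called where the edgeR quasi-likelihood test gave an adjusted p under 0.05 (Benjamini-Hochberg over 14018 tested genes). By that rule 56.1% of all tested genes were called, 27.7% as higher and 28.4% as lower, against which the 6 rises and 2 falls among 10 members are to be read. The median log2 fold change of the members was 0.41, and that of all tested genes was -6.33e-05. The members were chosen with earlier results of these data known, so these shares and medians only describe them. The same 8 members were also those whose knockdown samples all lay on one side of all control samples, 6 above and 2 below, which held for 60.9% of all tested genes (30.1% above and 30.8% below).

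**Figure D1:**
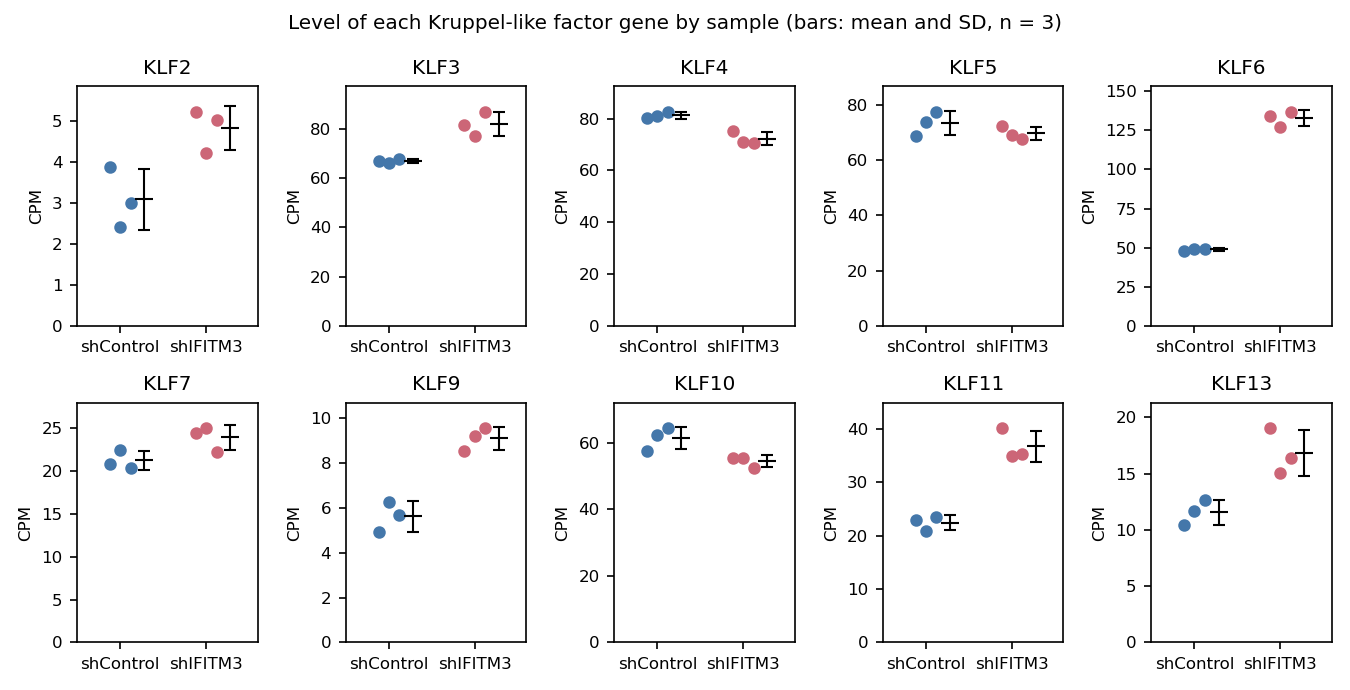
Level of each member in CPM (vertical axes from 0, each with its own scale) in 3 shControl and 3 shIFITM3 samples. Points are samples, and the black bars give mean and SD. The KLF6 samples lie at 48.0 to 49.4 CPM in shControl and at 127 to 137 CPM in shIFITM3, whereas the KLF5 and KLF7 ranges overlap.

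The promoter of the member that rose most and that of a member that fell are shown to set side by side the letters that precede them. Each run is the 250 bases before the RefSeq transcript start on GRCh38.p14, written 5′ to 3′ on the gene's strand (minus for both). Capitals mark every match, on both strands, to 5 motifs: the CACCC box (letters CACCC), the GC box, a site class of Krüppel-like and SP factors (letters GGGCGG), the CCAAT box (letters CCAAT), a FOXO motif (letters GTAAACA) and the TATA box (letters TATAAA). No motif contains another, so capitals that touch are separate matches or overlaps of neighbouring ones. In these runs the capitals are GC boxes, which read CCGCCC where they lie on the other strand, and CCAAT boxes, which read ATTGG.
KLF6 promoter, chr10:3785210-3785459: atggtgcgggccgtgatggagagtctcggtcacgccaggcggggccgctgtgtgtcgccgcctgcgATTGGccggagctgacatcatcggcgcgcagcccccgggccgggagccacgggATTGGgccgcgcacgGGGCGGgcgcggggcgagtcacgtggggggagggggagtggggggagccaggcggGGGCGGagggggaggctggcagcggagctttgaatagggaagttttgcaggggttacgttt
KLF4 promoter, chr9:107489770-107490019: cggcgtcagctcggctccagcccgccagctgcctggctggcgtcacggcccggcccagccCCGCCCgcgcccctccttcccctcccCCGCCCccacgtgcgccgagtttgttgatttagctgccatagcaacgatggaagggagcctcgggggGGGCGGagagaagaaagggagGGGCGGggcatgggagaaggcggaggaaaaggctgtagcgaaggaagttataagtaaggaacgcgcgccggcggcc
The KLF6 window held 2 GC boxes and 2 CCAAT boxes, and the KLF4 window 4 GC boxes. Windows were used for 8 members (13 windows, since KLF5, KLF7 and KLF11 have several starts). For KLF3 no window was found. The window of KLF10, which fell, was left out by choice and not for lack of a record. KLF4 is therefore the only member that fell whose motifs are described here. GC boxes stood in the windows of KLF2 (4), KLF13 (3) and both KLF11 starts (2 and 6), as well as in 1 of the 2 KLF5 windows and 1 of the 4 KLF7 windows. The KLF9 window had none, and with 32.4% G and C it was the least GC-rich of the 13. KLF2, with 80%, was the most GC-rich, and the median over all 35116 windows of the table was 58.0%. For the KLF9 and KLF13 windows and the KLF7 window with GC boxes, the bases that follow matched no GENCODE transcript of the gene. Those starts rest on the RefSeq record. A GC box is common, with at least 1 in 42.6% of all windows, and a CACCC match was found in 54.7%. GC boxes thus stood in windows of several members that rose, of KLF4, which fell, and of KLF5 and KLF7, which did not pass. The window of KLF9, which rose, held neither a GC box nor a CACCC match. None of the 13 windows used held the FOXO letters (2.98% of all windows). Whether any of these motifs has a part in the shifts was not tested. These matches describe letters in a short window and are not evidence of binding.

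KLF6 (chromosome 10, 3775996 to 3785209, minus strand), a widely expressed factor described as a growth suppressor and an inducer of the cell cycle inhibitor gene CDKN1A, was at 48.0, 49.4 and 49.0 CPM in shControl replicates 1, 2 and 3. It was at 134, 127 and 137 CPM in shIFITM3 replicates 1, 2 and 3. Every knockdown sample was thus far above every control sample, and the spread within a group was small (SD 1.49% of the mean in shControl and 3.76% in shIFITM3). The log2 fold change was 1.44 (SE 0.0445, 95% interval 1.35 to 1.53, edgeR adjusted p = 2.58e-18), which placed KLF6 at rank 310 of 14018 genes ordered from the largest rise. The next member in that order was KLF11, at rank 1235. In RNA from whole cultures, more cells with a transcript and more transcript per cell cannot be told apart.

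KLF2 (chromosome 19, 16324826 to 16328685, plus strand), an activator best known for keeping endothelial cells and T cells quiescent, was low. It was at 3.87, 2.40 and 2.99 CPM in the shControl replicates (82, 185 and 82 counts) and at 5.23, 4.22 and 5.02 CPM in the shIFITM3 replicates (115, 97 and 120 counts). The lowest knockdown sample was only a little above the highest control sample, shControl replicate 1. The log2 fold change was 0.70 (SE 0.193, 95% interval 0.30 to 1.09, edgeR adjusted p = 0.00362), the widest interval of any member. Without shControl replicate 2 the estimate was 0.50 (adjusted p = 0.0464). GENCODE lists processed pseudogenes of KLF2, KLF3, KLF4 and KLF7, so a small share of their reads could be placed elsewhere or shared.

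Among the SIN3A-recruiting members, KLF11 (chromosome 2, 10043550 to 10054836, plus strand), a TGF-beta-inducible repressor, was at 22.9, 20.9 and 23.6 CPM in the shControl replicates and at 40.1, 34.9 and 35.3 CPM in the shIFITM3 replicates. The groups stood well apart, with a log2 fold change of 0.72 (SE 0.0725, 95% interval 0.57 to 0.87, edgeR adjusted p = 8.68e-09). A non-coding gene on the other strand overlaps a KLF11 exon and has no row in the table, and no source at hand says whether the counting used strand.

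KLF9 (chromosome 9, 70384604 to 70414657, minus strand), a hormone-responsive factor induced by glucocorticoids and thyroid hormone, was at 4.90, 6.24 and 5.69 CPM in the shControl replicates and at 8.54, 9.17 and 9.54 CPM in the shIFITM3 replicates. Every knockdown sample exceeded every control sample. The log2 fold change was 0.67 with a 95% interval of 0.41 to 0.93 (SE 0.127, edgeR adjusted p = 8.3e-05). KLF13 (chromosome 15, 31326835 to 31435665, plus strand), a factor first studied for its role in T cell chemokine expression, was at 10.4, 11.6 and 12.7 CPM in the shControl replicates. It was at 19.0, 15.0 and 16.4 CPM in the shIFITM3 replicates, with an SD of 12.1% of the mean, the largest of any member in the knockdown. The log2 fold change was 0.53 (SE 0.103, 95% interval 0.32 to 0.75, edgeR adjusted p = 0.000108).

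KLF3 (chromosome 4, 38664199 to 38701517, plus strand), a repressor that acts through CtBP, rose by the smallest factor of the 6. It was at 66.8, 66.2 and 67.7 CPM in the shControl replicates and at 81.7, 77.3 and 87.0 CPM in the shIFITM3 replicates. The control samples were nearly level while the knockdown samples were more spread out, and the groups did not overlap (log2 fold change 0.30, SE 0.0481, 95% interval 0.20 to 0.40, edgeR adjusted p = 1.32e-05). Its antisense neighbour KLF3-AS1 shares exon sequence with it and had 1, 2 and 2 counts in the shControl replicates and 8, 7 and 13 counts in the shIFITM3 replicates, too few to be tested. Those counts are small beside the 1418 to 5094 counts of KLF3 in shControl and the 1778 to 2080 in shIFITM3.

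The members that fell did so by small amounts. KLF10 (chromosome 8, 102648784 to 102655725, minus strand), the closest relative of KLF11 and likewise TGF-beta-inducible, was at 57.6, 62.2 and 64.3 CPM in the shControl replicates and at 55.4, 55.5 and 52.4 CPM in the shIFITM3 replicates. The gap between the groups was narrow, with shControl replicate 1 close to the knockdown samples (log2 fold change -0.18, SE 0.0521, 95% interval -0.28 to -0.07, edgeR adjusted p = 0.00577). KLF4 (chromosome 9, 107484852 to 107489769, minus strand), which drives epithelial differentiation and is a reprogramming factor, was at 80.1, 81.1 and 82.7 CPM in the shControl replicates and at 75.1, 70.9 and 70.6 CPM in the shIFITM3 replicates. No sample of either group reached the other group's range (log2 fold change -0.17, SE 0.0449, 95% interval -0.26 to -0.08, edgeR adjusted p = 0.0022). Both shifts were smaller than the median absolute log2 fold change of all tested genes, 0.25.

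KLF5 (chromosome 13, 73054976 to 73077538, plus strand), which promotes epithelial proliferation, was at 68.7, 74.0 and 77.5 CPM in the shControl replicates and at 72.3, 69.2 and 67.7 CPM in the shIFITM3 replicates. The ranges overlapped, and the interval of the log2 fold change ran from -0.18 to 0.03 (estimate -0.08, edgeR adjusted p = 0.195), so a fall of the size seen in KLF4 or KLF10 lies inside it. KLF7 (chromosome 2, 207074137 to 207173851, minus strand), a factor of neuronal development, was at 20.9, 22.4 and 20.4 CPM in the shControl replicates and at 24.5, 25.00 and 22.3 CPM in the shIFITM3 replicates. Here shControl replicate 2 lay just above shIFITM3 replicate 3, and the log2 fold change of 0.16 (95% interval 0.01 to 0.32) missed the threshold at an edgeR adjusted p of 0.0738. It passed without shIFITM3 replicate 3 (0.21, adjusted p = 0.0384).

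**Figure D2:**
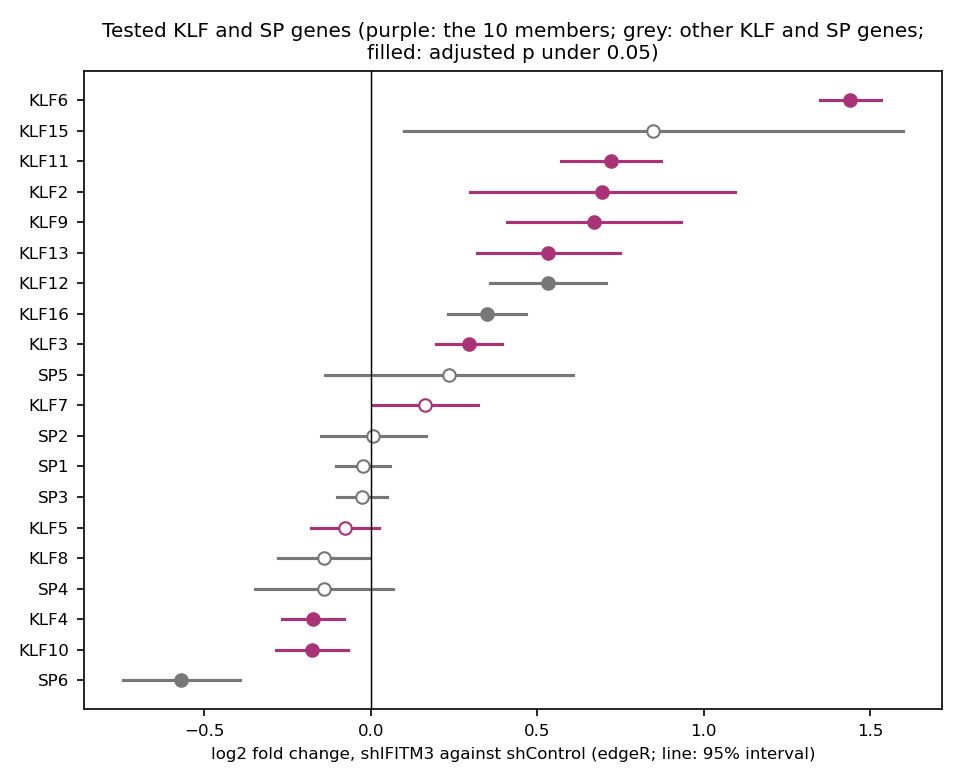
Log2 fold change of shIFITM3 against shControl for the 10 members (purple) and 10 other tested KLF and SP genes (grey), in order of size. Lines are 95% intervals from the edgeR fit and filled points passed an adjusted p under 0.05; KLF6 stands alone at 1.44 and SP6 is the lowest at -0.57.

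Per length, the order of the members changed little apart from KLF6. Levels were set per kilobase of annotated exon (GENCODE release 29), which allows genes to be compared, although no source at hand names the authors' own gene models. In shControl the order was KLF4 (27.7 CPM per kb), KLF5 (19.6), KLF10 (15.3), KLF3 (11.2), KLF6 (8.17), KLF11 (5.23), KLF7 (2.46), KLF13 (1.68), KLF2 (1.53) and KLF9 (1.08). Neighbours from KLF4 down to KLF13 did not overlap in the 3 samples, while KLF13 overlapped with KLF2 and KLF2 with KLF9. In shIFITM3 KLF6 was at 22.2 CPM per kb, behind KLF4 (24.6) and ahead of KLF5 (18.6). KLF3 (13.7) and KLF10 (13.6) then overlapped, as did KLF7 (2.77) with KLF13 (2.45) and KLF13 with KLF2 (2.39). With the longest transcript as the length, KLF6 in shIFITM3 was at 28.5 CPM per kb and came before KLF4 (25.7), so the order of these genes in the knockdown depends on the gene model.

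**Figure D3:**
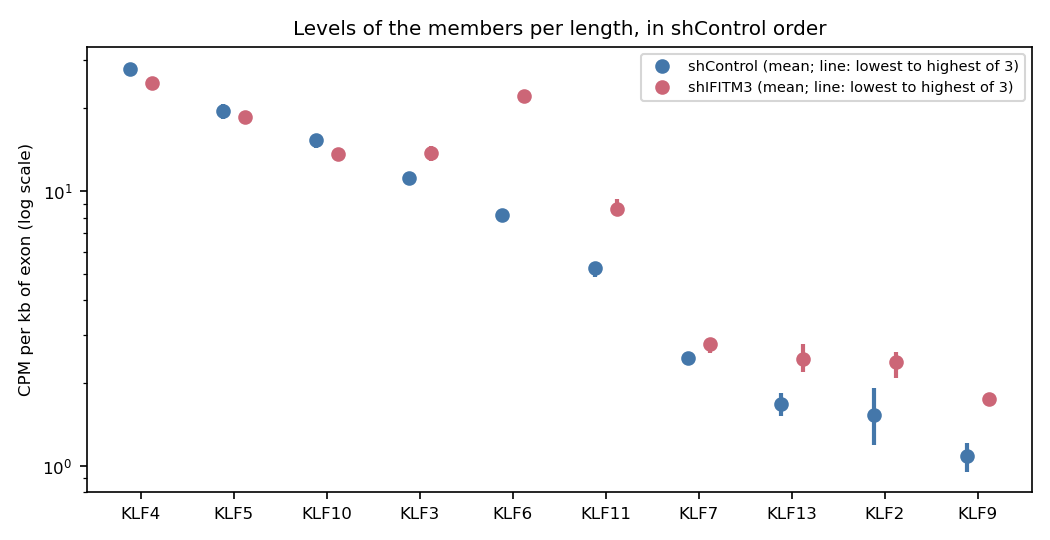
Mean level of each member in CPM per kilobase of exon (log axis), in the order of shControl, for shControl (blue) and shIFITM3 (red). Lines run from the lowest to the highest of 3 samples. KLF6 moves from 8.17 to 22.2 CPM per kb, and KLF4 stays at the top with 27.7 and 24.6.

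The summed level of the 10 transcripts was 396 ± 11.2 CPM in shControl and 502 ± 13.8 CPM in shIFITM3 (SD, n = 3 each). KLF6 made up 78.6% of the difference of 107 CPM. Its part of the members' counts went from 12.1 to 12.5% in the control samples to between 26.0 and 27.2% in the knockdown samples, while that of KLF4 went from 20.3 to 20.9% to between 14.03 and 14.5%. The larger total lowers the part of KLF4 by itself, and the level of KLF4 fell only to 0.888 times that in shControl. Without KLF6 the sum was 347 ± 10.7 and 370 ± 10.8 CPM, and the ranges still did not overlap (336 to 358 against 361 to 382 CPM).

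The change of a count ratio between groups does not depend on library scaling or gene length, whereas the ratios themselves are of counts and not per length. KLF10 and KLF11, which share their known inducer, shifted against each other. There were 2.52, 2.97 and 2.73 KLF10 counts per KLF11 count in the shControl replicates and 1.38, 1.59 and 1.48 in the shIFITM3 replicates. The ratio thus fell in every knockdown sample relative to every control sample, with a difference of -0.88 on the log2 scale (exact two-sided permutation test, p = 0.1, the smallest that 3 against 3 samples can give). This separation, and with it the p-value, follows from the shifts of KLF10 (-0.18) and KLF11 (0.72) given above. It is no further result beside them. For KLF4 against KLF5, which act in opposite directions on epithelial growth, the ratios were 1.17, 1.096 and 1.07 in the shControl replicates and 1.04, 1.02 and 1.04 in the shIFITM3 replicates. The groups did not overlap, but the difference of -0.10 on the log2 scale was small (exact two-sided permutation test, p = 0.1), and it was -0.06 without shControl replicate 1. The p-values of these 2 ratios are both at the design's floor, and adjustment over them leaves them at that value.

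**Figure D4:**
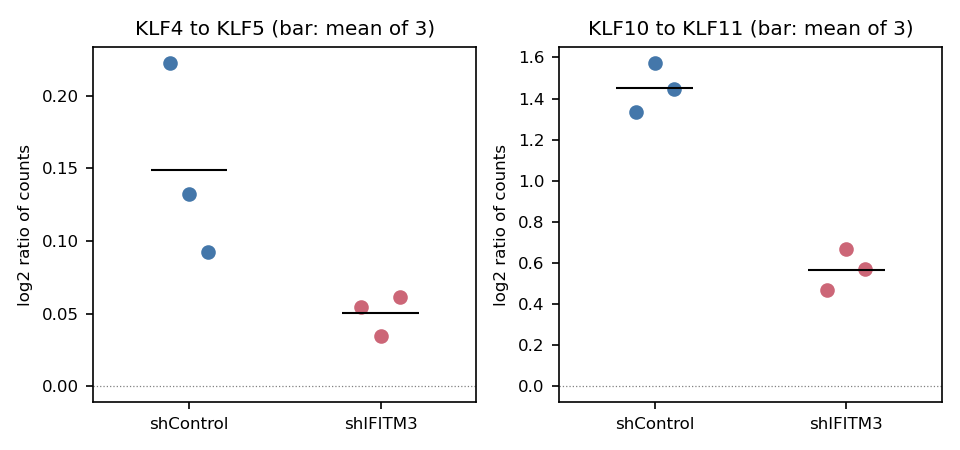
Log2 ratio of counts within each library for KLF4 to KLF5 and for KLF10 to KLF11, on separate axes. Points are samples and bars are means of 3. The KLF10 to KLF11 ratio lies between 1.33 and 1.57 in shControl and between 0.47 and 0.67 in shIFITM3.

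Of 17 further genes of the Krüppel-like and SP family, 16 had a row and 10 were tested, of which 2 rose and 1 fell. Over these KLF and SP genes together the median log2 fold change was -0.01. The KLF genes among them were KLF12, KLF15 and KLF16, with positive estimates given below, and KLF8 (-0.14, edgeR adjusted p = 0.0806). The 1 fall was that of an SP gene. Of all tested genes, 27.7% rose and 28.4% fell by the same rule. This list and those that follow were chosen with earlier results of these data known. KLF12, a CtBP-recruiting repressor like KLF3, rose from 14.7 ± 0.774 to 21.3 ± 1.08 CPM (log2 fold change 0.53, edgeR adjusted p = 9.01e-06). KLF16, which recruits SIN3A, rose from 51.3 ± 2.23 to 65.6 ± 5.33 CPM (0.35, edgeR adjusted p = 1.22e-05). SP6, a factor of tooth and skin epithelium, fell from 19.3 ± 0.477 to 13.0 ± 0.364 CPM (-0.57, edgeR adjusted p = 4.11e-06). KLF15 had the largest estimate of these genes (0.85), at 0.584 ± 0.153 and 1.07 ± 0.218 CPM, and its edgeR adjusted p of 0.0504 lay at the threshold. The ubiquitous factors SP1 and SP3, with 164 ± 4.76 and 222 ± 4.71 CPM in shControl, had log2 fold changes of -0.02 and -0.03 and did not pass (edgeR adjusted p = 0.631 and 0.555). KLF1, KLF14, KLF17, SP7, SP8 and SP9 were too low to be tested, and SP8 had no count in any library.

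Of 11 tested cofactor genes 3 rose and 5 fell (all tested genes: 27.7% and 28.4%). Their median log2 fold change was -0.08. The histone deacetylase genes HDAC2 (-0.25, edgeR adjusted p = 2.18e-06), HDAC3 (-0.26, edgeR adjusted p = 5.02e-05) and HDAC1 (-0.18, edgeR adjusted p = 0.000681) fell, and the acetyltransferase gene CREBBP (0.22, edgeR adjusted p = 3.65e-05) rose. The largest fall in this list, picked after its values were seen, was that of KAT2B, another acetyltransferase gene, from 9.91 ± 0.559 to 7.14 ± 1.09 CPM (-0.46, edgeR adjusted p = 0.00242). SIN3A, the corepressor that KLF9, KLF10, KLF11 and KLF13 bind, was at 121 ± 1.91 and 117 ± 3.25 CPM and did not pass (edgeR adjusted p = 0.236). SIN3B rose (0.20, edgeR adjusted p = 0.00189) and SAP30 fell (-0.28, edgeR adjusted p = 0.0247). The SAP30 call was lost without shControl replicate 2 or shIFITM3 replicate 1 (adjusted p = 0.0903 and 0.121). Of the CtBP genes, CTBP1 rose (0.15, edgeR adjusted p = 0.00932) and CTBP2 did not pass (-0.08, edgeR adjusted p = 0.108). CTBP2 overlaps the expressed gene ZRANB1 on the other strand. Without shIFITM3 replicate 2 the cofactor genes that rose numbered 2. Of 5 genes for ubiquitin ligase components that target Krüppel-like factors for degradation 4 rose and 0 fell (all tested genes: 27.7% and 28.4%). Their median log2 fold change was 0.30. SMURF1, reported to act on KLF2, rose by 0.35 (edgeR adjusted p = 4.15e-08), BTRC by 0.31, VHL by 0.30 and WWP1, which acts on KLF2 and KLF5, by 0.13. The WWP1 call was lost without shControl replicate 1, shIFITM3 replicate 1 or shIFITM3 replicate 3 (adjusted p = 0.0656, 0.137 and 0.0756). SMURF1 and WWP1 overlap the expressed genes TRRAP and RMDN1 on the other strand.

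Among 16 tested genes of pathways known to induce members of the family 8 rose and 3 fell (all tested genes: 27.7% and 28.4%). Their median log2 fold change was 0.23. The TGF-beta receptor genes TGFBR1 (0.55, from 45.6 ± 2.54 to 66.3 ± 4.54 CPM) and TGFBR2 (0.33, from 120 ± 2.28 to 151 ± 3.40 CPM) and the signal transducer gene SMAD3 (0.57, from 145 ± 4.02 to 216 ± 4.12 CPM) rose. These lie upstream of KLF10 and KLF11, which went in opposite directions. MEF2D, one of the MEF2 factors that act on KLF2 and KLF4 downstream of the kinase ERK5, rose from 44.3 ± 3.81 to 81.2 ± 1.91 CPM (0.86, edgeR adjusted p = 2.92e-12). MEF2A rose less (0.17, edgeR adjusted p = 0.00845), and MEF2C did not pass (0.77, edgeR adjusted p = 0.0634). The ERK5 gene MAPK7 did not pass either (-0.08, edgeR adjusted p = 0.406). MAPK7 and MEF2A overlap the expressed genes B9D1 and LYSMD4 on the other strand. Of the FOXO genes, whose products are known inducers of KLF2 and KLF6, FOXO4 rose from 6.53 ± 1.45 to 13.3 ± 0.273 CPM (0.98, edgeR adjusted p = 4.82e-07), FOXO1 fell from 21.5 ± 1.48 to 16.7 ± 0.987 CPM (-0.36, edgeR adjusted p = 0.000732), and FOXO3, the most abundant, was at 117 ± 3.33 and 117 ± 4.51 CPM. The glucocorticoid receptor gene NR3C1 fell from 143 ± 0.987 to 120 ± 2.45 CPM (-0.26, edgeR adjusted p = 3.33e-06). THRA, a thyroid hormone receptor gene, had the largest fall in this list, from 8.36 ± 0.102 to 6.01 ± 0.869 CPM (-0.47, edgeR adjusted p = 0.00288). THRA overlaps the expressed gene NR1D1 on the other strand. The other such receptor gene, THRB, did not pass (0.01, edgeR adjusted p = 0.956). SIN3A, SIN3B, SAP30, CTBP1, CTBP2, SP1, SP3, NR3C1, THRA, THRB, MAPK7, MEF2A, MEF2C and the FOXO genes were picked after their values were seen. So were FKBP5, ENG, TGFB1, CCND1 and CCNE1 in the lists that follow.

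Genes that respond to glucocorticoids, as KLF9 does, rose in 4 of 5 tested cases and fell in 0 (all tested genes: 27.7% and 28.4%). Their median log2 fold change was 0.70. The kinase gene SGK1 rose from 27.2 ± 2.43 to 94.0 ± 1.96 CPM (1.80, edgeR adjusted p = 2.88e-18), the clock gene PER1 by 0.84, the phosphatase gene DUSP1 by 0.70 and TSC22D3, which encodes the glucocorticoid-induced leucine zipper protein, by 0.46. FKBP5, a co-chaperone of the receptor and a common readout of glucocorticoid exposure, was at 33.0 ± 3.44 and 32.4 ± 0.733 CPM (-0.02, edgeR adjusted p = 0.794). ZBTB16 was too low to be tested, with 2, 30 and 6 counts in the shControl replicates and 0, 0 and 0 in the shIFITM3 replicates. SGK1, PER1 and DUSP1 also respond to other stimuli, and no steroid was named in the labels. Whether glucocorticoid signalling has a part in the rises of these genes or of KLF9 was not tested.

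Textbook targets of Krüppel-like factors went both ways, with 7 of 21 tested genes higher and 8 lower (all tested genes: 27.7% and 28.4%). Their median log2 fold change was 0.02. CDKN1A, the gene of the cell cycle inhibitor p21 and a target of KLF4 and KLF6, rose by 1.46 (edgeR adjusted p = 3.69e-16), and the urokinase gene PLAU, a KLF6 target, rose from 146 ± 1.99 to 222 ± 4.83 CPM (0.60, edgeR adjusted p = 4.86e-13). CDH1, the E-cadherin gene and a reported target of KLF4 and KLF6, fell from 177 ± 2.05 to 117 ± 2.72 CPM (-0.60, edgeR adjusted p = 1.9e-12). The mitotic cyclin gene CCNB1, which KLF4 represses, fell by 0.52 on the log2 scale (edgeR adjusted p = 5.31e-12). The other cyclin genes of this list, CCND1 (0.22, edgeR adjusted p = 1.31e-07) and CCNE1 (0.38, edgeR adjusted p = 7.21e-06), rose. The KLF6 targets ENG (-0.20, edgeR adjusted p = 0.00204) and TGFB1 (-0.19, edgeR adjusted p = 0.000738) fell, opposite to PLAU.

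The 3 targets with the largest shifts, NOS3, KRT4 and IVL, were picked after their values were seen and were expressed at low levels. KRT4, a mucosal keratin gene and a KLF4 target, fell from 11, 91 and 18 counts in the shControl replicates to 2, 0 and 0 counts in the shIFITM3 replicates (edgeR adjusted p = 1.59e-05), too few for a fold change to be given. NOS3, the endothelial nitric oxide synthase gene and a KLF2 target in endothelium, had 2, 20 and 6 counts in the shControl replicates and 124, 106 and 120 counts in the shIFITM3 replicates. That was 0.0943, 0.26 and 0.219 CPM against 5.63, 4.61 and 5.02 CPM, which the fit put at 4.52 on the log2 scale (edgeR adjusted p = 6.45e-12, SE 0.303). NOS3 shares exon sequence with ATG9B on the other strand, which reached at most 69 counts in a library. The other KLF2 targets in the list, THBD (-0.16, edgeR adjusted p = 0.0585) and S1PR1 (0.22, edgeR adjusted p = 0.606), did not pass. Of the endothelial markers, CDH5 rose and PECAM1 fell between the same groups (1.68 and -1.66 on the log2 scale), and their part in the NOS3 result was not tested. IVL, the involucrin gene of differentiating squamous epithelium and a KLF4 target, was at 2.78, 2.62 and 2.08 CPM in the shControl replicates and at 0.682, 0.609 and 0.586 CPM in the shIFITM3 replicates (-1.99, edgeR adjusted p = 2.87e-06). Every knockdown sample was below every control sample for IVL and KRT4 and above every control sample for NOS3.

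**Figure D5:**
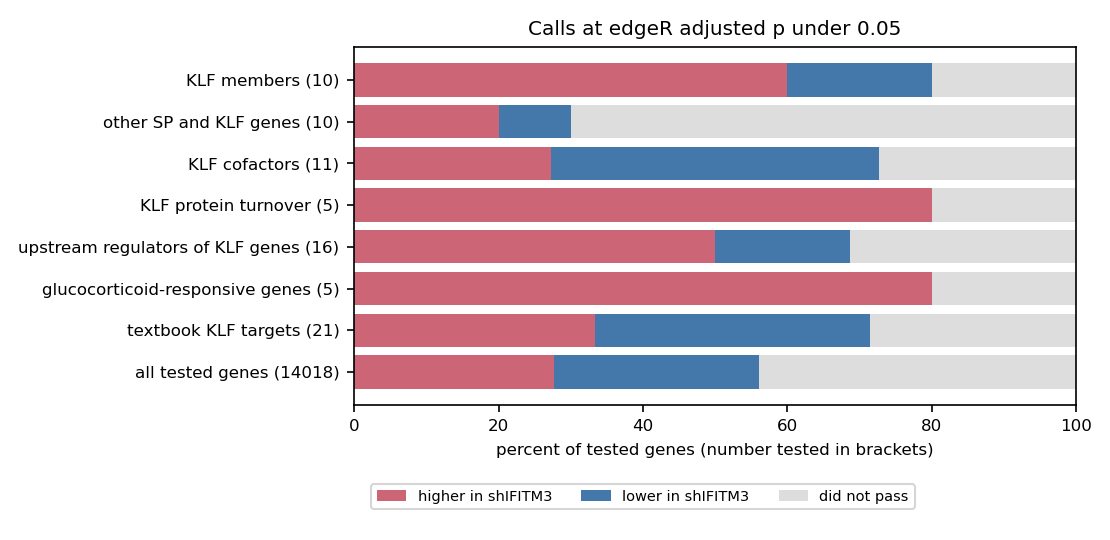
Percent of tested genes (horizontal axis, 0 to 100) that were higher (red) or lower (blue) in shIFITM3 or did not pass (grey) at an edgeR adjusted p under 0.05, for the members, the lists of related genes and all tested genes. The number tested stands in brackets; the members show 6 higher and 2 lower of 10, against 27.7% and 28.4% of all genes.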

How the data were processed

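RNA from 3 shControl and 3 shIFITM3 samples of PC-9 cells was sequenced after poly(A)-based stranded library preparation, per the labels' protocols. The deposited values are unnormalized counts per gene symbol, for which the submitters' processing notes name featureCounts (Subread 2.0.6), SAMtools 1.20, HISAT2 2.2.1, fastp 0.23.4, FastQC 0.12.1 and build hg38. The annotation and strand setting used for them is not stated in any source used here. The fit was made with edgeR 4.0.16 under R 4.3.3 (filterByExpr by group, TMM, glmQLFit on group, glmQLFTest, two-sided), and p-values were adjusted by Benjamini-Hochberg over 14018 tested genes. CPM used TMM-scaled library sizes, SE was the absolute log2 fold change over the square root of F, and intervals are 95% t intervals. Ratios added 0.5 counts and were tested in SciPy 1.17.1. The procedure was tested on simulated data. Total counts of 21342028 to 77228760 make 3 counts, the limit a count of 0 allows, 0.141 CPM in the shallowest library and 0.0388 CPM in the deepest, for counting error only. Positions, promoters and names came from RefSeq (GRCh38.p14) and exon lengths from GENCODE release 29. The members and lists were chosen with earlier results of these data known. Named genes are all members, IFITM3, up to 4 genes of each list with the smallest p, other KLF and SP genes that passed, and genes picked after their values were seen (markers of other cell types, NOS3, KRT4, IVL, THBD, S1PR1, KAT2B and every other name outside this rule). Alternatives were total-count, upper-quartile and RLE scaling, other filters, DESeq2 1.42.0, limma-voom (limma 3.58.1), a replicate block, a thinned library, a 1.5-fold test and leaving out each sample.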

Additional observations from a re-analysis of the deposited data

How the results depend on the processing

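The 6 rises and 2 falls among the members were kept under RLE, upper-quartile and total-count scaling, both filters, DESeq2, limma-voom, the thinned library and the replicate block. Leaving out single samples gave 6 to 7 higher (KLF7 added) and 2 lower. A test against a 1.5-fold change left 1 member higher (KLF6) and 0 lower, and 1115 genes in all (807 higher, 308 lower), since it asks for larger changes. It left 0 of the other KLF and SP genes in either direction, 0 cofactors in either direction, 0 ligase genes, 2 higher and 0 lower upstream genes, 2 glucocorticoid-responsive genes, and 2 higher and 2 lower targets. Lower KLF and SP genes outside the members numbered 2 with upper-quartile scaling and 1 to 2 with single samples left out, lower ligase genes 0 to 1, and glucocorticoid-responsive genes gave 1 lower without a filter. The causes were not tested. KLF15 passed with RLE scaling (adjusted p = 0.0492), total counts (0.0483), limma-voom (0.0388), the thinned library (0.0365) and without shIFITM3 replicate 1 (0.0429). THBD passed as lower with upper-quartile scaling (-0.18, adjusted p = 0.0359) and without shIFITM3 replicate 2 (-0.24, adjusted p = 0.00881). Of 56 genes recomputed, 4 reversed, each without passing before or after. FOXO3 was at 0.00405 with total counts and 0.0058 with the strict filter. With single samples left out, the log2 fold change ran from -0.0377 to 0.0183 for FOXO3, from -0.0561 to 0.00593 for SP1, from -0.0895 to 0.0413 for FKBP5 and from -0.0424 to 0.51 for S1PR1. The COL1A1 call was lost with DESeq2 (adjusted p = 0.0567), the block (0.0537), the thinned library (0.0624) and without shControl replicates 2 or 3 or shIFITM3 replicate 3 (0.163, 0.093 and 0.28). Deviations of same-numbered samples correlated at 0.0258, 0.0466 and 0.00411, so the numbers are not taken to pair samples. The replicate block gave 7870 calls (3865 higher, 4005 lower) against 7870, and left the ratio differences at -0.10 and -0.88 (exact paired permutation p = 0.25). At 82 to 185 control counts, KLF2 is the member most limited by depth.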
